A study of Solanum tuberosum with 36 samples.

Results

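The genes described here are 150 potato genes whose leaf transcript means were lower on both sampled days of soil drought than before it, in each of 4 cultivars, and whose change from day 6 to day 10 was small on average over the cultivars, though not in every one of them. Leaf RNA was sequenced from the drought-tolerant cultivars Gwiazda and Tajfun and the drought-sensitive cultivars Oberon and Owacja, and each tolerant cultivar is paired with a sensitive one (Gwiazda with Oberon, Tajfun with Owacja). Day 0 plants were watered controls, and the plants of days 6 and 10 had received no water since drought began, after tuber formation had started. The labels give 3 libraries, each from a different plant, for each of the 12 groups of cultivar and day, 36 libraries in all. No watered plants of days 6 and 10 were analysed here, so drought cannot be told apart from plant age or growing conditions on those days. The leaf samples were compound leaves from the upper part of the plant. No leaf marker was checked, because the gene identifiers came without annotation.

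Values are deposited group means of normalized reads, with no value for a single library, so they carry no SD and no test across replicates could be made. Reads were normalized separately in each of 18 tables of 2 groups, and a ratio was taken only within 1 table. A ratio here is the log2 of the later mean over the earlier mean, so that -1 is a 2-fold lower mean, and "lower" or "reduced" speaks of these means alone. Of 25289 genes, 15212 were eligible, with every mean above 10 in the 12 within-cultivar tables and a day 0 mean below 30000 in some cultivar. Eligible genes entered the list when the 4 cultivars' ratios of day 10 to day 6 averaged between -0.5 and 0.5 and when all 8 ratios of days 6 and 10 to day 0 were at most -0.5. That left 565 genes, which were ranked by their largest ratio from day 0, the ratio of the cultivar and day in which a gene was reduced least. The first 150 are the members. The fall from day 0 is therefore how they were chosen and is described without a test.

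In leaves short of water, the hormone abscisic acid accumulates and stomata close, which saves water and limits the entry of carbon dioxide. Transcripts of protective proteins, such as dehydrins, commonly rise under these conditions, and many transcripts for photosynthesis and growth commonly decline. Which of these roles, if any, the members have is not known here. Their identifiers, of the PGSC potato gene set, had 0 matches in the reference table at hand, so each is given by its identifier alone. None of 33 genes taken from the study is a member. These are its 23 drought response genes, its 8 stable genes, RAB18 and cyclophilin. The longer list from the study's first round of selection was not compared with the members. RAB18, a dehydrin gene used as a drought marker (PGSC0003DMG400003531), had means of 86.6, 57.4, 131 and 62.2 reads on day 0 in Gwiazda, Oberon, Tajfun and Owacja. Its means on day 6 were 2094, 1935, 4357 and 3513, and on day 10 they were 1030, 861, 3365 and 1395, above day 0 in all cultivars. The study chose its 23 drought response genes and its 8 stable genes on these samples, so they are no independent evidence of direction. Of the 23 drought response genes, from 2 to 8 were at least 2-fold lower than on day 0, depending on cultivar and day. From 10 to 15 were at least 2-fold higher. Only 13 of the 23 were eligible, and some of the counted ratios had a mean of 0 reads. Of the 8 stable genes, 0 were at least 2-fold lower or higher in any cultivar on either day.

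The median member had 799 reads on day 0 in Gwiazda, 767 in Oberon, 1031 in Tajfun and 874 in Owacja, beside medians of 622, 577, 611 and 546 over all eligible genes. On day 6 the median member had 156, 139, 177 and 150 reads in the same order, and on day 10 it had 138, 138, 138 and 145. Medians of the eligible genes on these days lay between 524 and 612 reads. The medians of the members were thus 138 to 177 reads under drought and 767 to 1031 before it, while those of the eligible genes stayed between 524 and 622. Reads are not divided by transcript length, so these levels compare groups and not genes. Summed over the 150 genes, the means made up 0.693% of all normalized reads in Gwiazda on day 0, 0.675% in Oberon, 0.843% in Tajfun and 0.744% in Owacja. On day 6 the sums were 0.160%, 0.161%, 0.181% and 0.149%, and on day 10 they were 0.131%, 0.142%, 0.136% and 0.143%. In bulk leaf RNA, fewer cells of a type and less of the RNA per cell cannot be told apart.

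**Figure D1:**
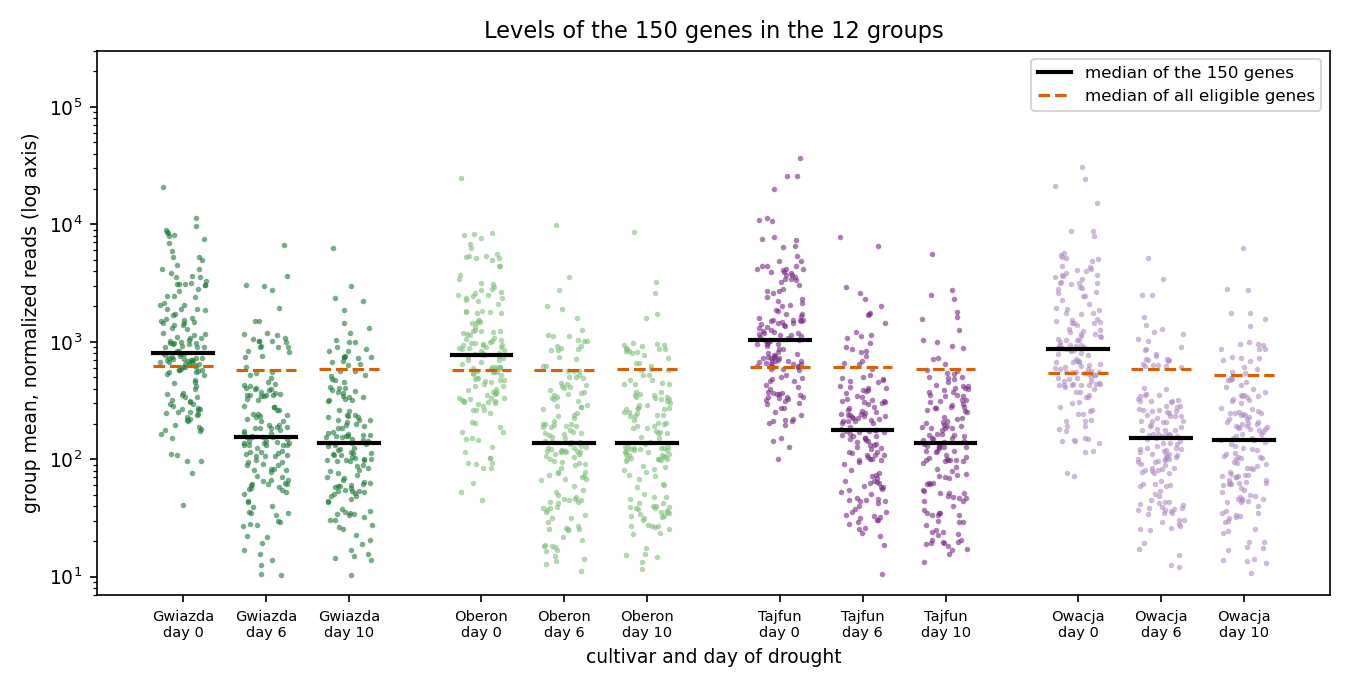
Deposited group means (normalized reads, log axis) of the 150 genes in the 12 groups of cultivar and day. Each point is a gene, black lines are the medians of the 150 genes and dashed orange lines the medians of all 15212 eligible genes; the black lines lie above the orange on day 0 (767 to 1031 reads) and below it on days 6 and 10 (138 to 177 reads).

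Read as ratios, the median member stood on day 6 at -2.22 in Gwiazda, -2.22 in Oberon, -2.48 in Tajfun and -2.53 in Owacja. On day 10 the medians were -2.43, -2.17, -2.85 and -2.55. Over all eligible genes the medians of these 8 ratios lay between 0.02 and 0.08. Every member was at least 2-fold lower in all 8 ratios, which 3.67% of the eligible genes were, 558 in number, and 38 members were at least 4-fold lower in all 8. Single values ranged from 0.456% of the day 0 mean left to 43.3%. On day 6, 91 members were at least 4-fold lower in Gwiazda (3.61% of eligible genes), 91 in Oberon (2.95%), 116 in Tajfun (4.15%) and 115 in Owacja (4.65%). On day 10 these counts were 108 in Gwiazda (6.89%), 87 in Oberon (5.15%), 133 in Tajfun (7.72%) and 112 in Owacja (7.90%). The shares in parentheses stand only as the background of the counts, since the rule chose the members on these ratios.

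Tajfun had the lowest median ratio on day 10, also after rescaling to equal totals, and was the cultivar with the lowest ratio for 62 of the 150 genes, beside 43 for Owacja, 34 for Gwiazda and 11 for Oberon. On day 6 Owacja was lowest for 53 genes, Tajfun for 45, Oberon for 31 and Gwiazda for 21. Such counts were not made over all eligible genes, so they are not read as a trait of the members. Eligible genes at least 4-fold lower were also fewer in Oberon (2.95% on day 6, 5.15% on day 10) than in Tajfun (4.15%, 7.72%) or Owacja (4.65%, 7.90%). The order on day 6 depended on how the groups were scaled. When the 2 groups of a table were rescaled to equal totals, the day 6 medians were -2.26 in Gwiazda, -2.24 in Oberon, -2.17 in Tajfun and -2.14 in Owacja. This rescaling moved the median of all eligible genes from 0.07 to 0.39 in Tajfun and from 0.06 to 0.45 in Owacja, because the summed means of those cultivars were higher on day 0 than on day 6. Relative to the median of the eligible genes, the median member was at -2.24, -2.26, -2.56 and -2.59 on day 6 and at -2.45, -2.23, -2.93 and -2.59 on day 10. A rescaling shifts all ratios of a table alike, so these differences cannot change with it.

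Most genes at the head of the list had means above 1000 reads in some cultivar on day 0. PGSC0003DMG400003788 ranked first. Gwiazda had means of 1544, 35.0 and 59.5 reads of it on days 0, 6 and 10, and Oberon had 1047, 31.7 and 14.6. Tajfun had 4135, 42.6 and 19.8 reads, and Owacja 4149, 160 and 113. The lowest day 0 mean, that of Oberon, was above the highest drought mean, that of Owacja on day 6. Its ratios ran from -4.70 (Gwiazda, day 10) to -7.71 (Tajfun, day 10), so that the cultivars differed most on day 10.

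PGSC0003DMG401003179 ranked next and was the gene closest to the minimum mean of 10 reads at the head of the list. Its means were 525, 10.4 and 17.0 reads on days 0, 6 and 10 in Gwiazda, and 907, 38.4 and 32.6 in Oberon. They were 1717, 18.5 and 19.5 in Tajfun, and 2447, 12.0 and 18.1 in Owacja. All drought means lay within 10.4 and 38.4 reads, and the day 6 ratios ran from -4.56 in Oberon to -7.78 in Owacja. These genes, with PGSC0003DMG400011033, also had the lowest means of the 8 ratios.

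PGSC0003DMG400011033 had day 0 means of 1894, 1822, 2421 and 1040 reads in Gwiazda, Oberon, Tajfun and Owacja. Day 6 means were 98.7, 117, 46.3 and 29.3, and day 10 means were 56.8, 58.4, 36.8 and 61.3. It thus went on downwards from day 6 in all cultivars but Owacja, where the ratio of day 10 to day 6 was 1.19. The same exception in Owacja was seen in the genes of the next ranks. PGSC0003DMG400003013 had 2265, 59.1 and 171 reads on days 0, 6 and 10 in Owacja, a day 10 to day 6 ratio of 1.66, beside ratios of -0.72 in Gwiazda, -1.05 in Oberon and -0.61 in Tajfun. PGSC0003DMG400008677 had 631, 12.5 and 60.7 reads in Owacja, a ratio of 2.41. In Oberon the same gene had 2455, 140 and 36.3 reads, a ratio of -1.97. The average over cultivars, 0.01, was close to 0 for this gene although the cultivars moved in opposite directions after day 6.

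In the genes of the next ranks the day 10 ratios of the 4 cultivars lay closer together. Their range was 1.34 for PGSC0003DMG400023011, 0.96 for PGSC0003DMG400027259 and 1.76 for PGSC0003DMG400028419, beside 1.96 to 3.01 for the genes ranked above. PGSC0003DMG400023011 had day 0 means between 2615 and 3910 reads, day 6 means between 159 and 265, and day 10 means between 165 and 317. PGSC0003DMG400027259 had 3097, 2656, 3206 and 3596 reads on day 0 in Gwiazda, Oberon, Tajfun and Owacja, 377, 200, 262 and 269 on day 6, and 209, 350, 219 and 320 on day 10. For both genes all day 0 means lay far above all drought means. PGSC0003DMG400028419 had fewer reads, 260 to 490 reads on day 0, 17.0 to 59.0 on day 6 and 13.1 to 48.3 on day 10.

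Owacja had the highest means of the remaining members of the first 10. PGSC0003DMG400012809 had 3132, 2499, 1037 and 5289 reads on day 0, 245, 201, 147 and 652 on day 6, and 98.5, 326, 126 and 494 on day 10, in the order Gwiazda, Oberon, Tajfun, Owacja. Tajfun was lowest and Owacja highest on days 0 and 6, and the ratios to day 0 ran from -2.84 to -4.99. PGSC0003DMG402003479 had 1500, 1802, 651 and 3696 reads on day 0, 70.5, 75.6, 100 and 193 on day 6, and 166, 47.6, 62.8 and 260 on day 10. The highest mean was that of Owacja on all 3 days, as for the gene before it.

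**Figure D2:**
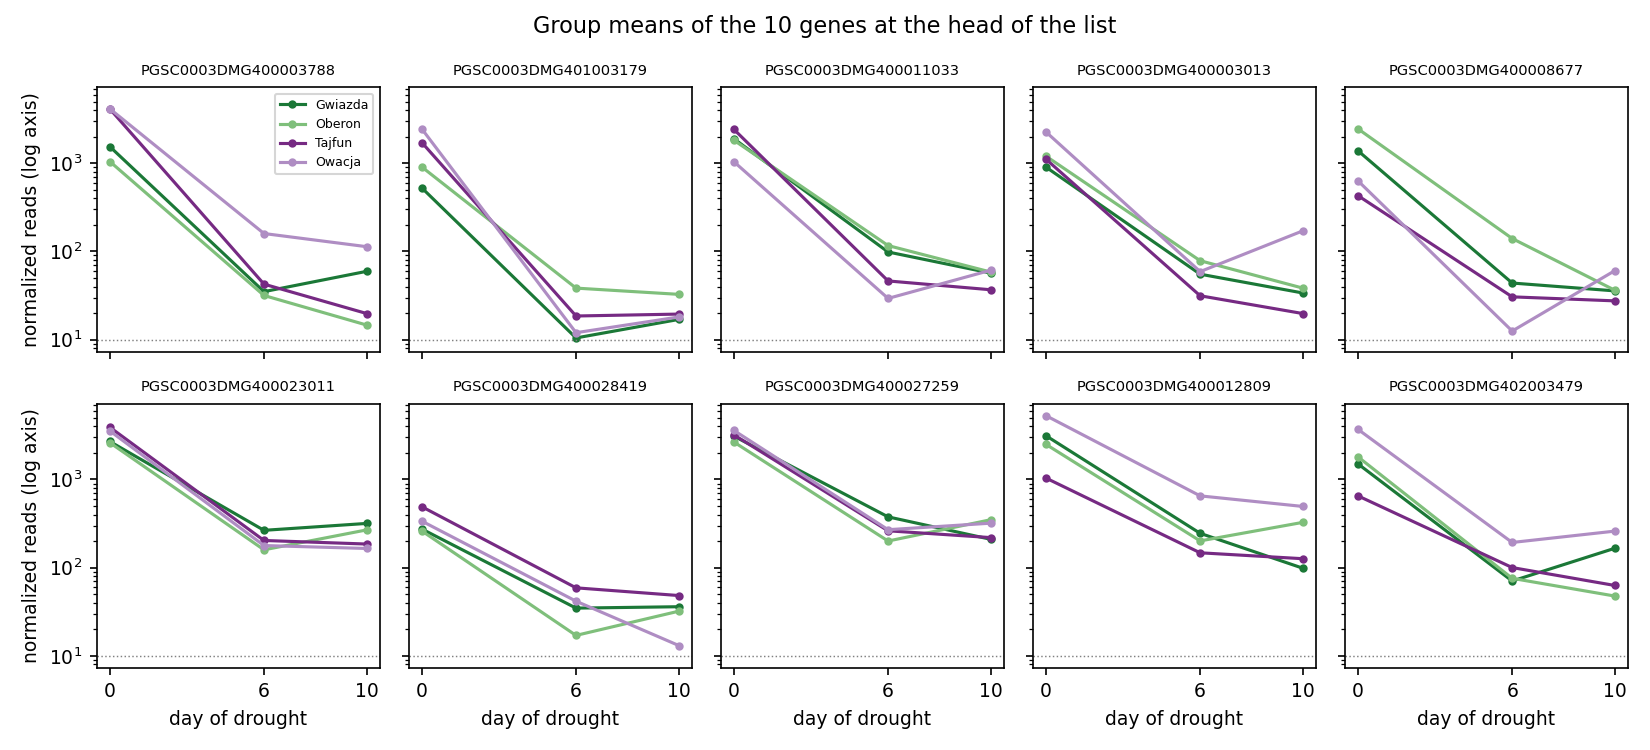
Deposited group means (normalized reads, log axis) of the first 10 genes of the list on days 0, 6 and 10, with 1 line for each cultivar and a dotted line at the minimum mean of 10 reads. The means of PGSC0003DMG400003788 went from between 1047 and 4149 reads on day 0 to between 14.6 and 113 on day 10, and in Owacja PGSC0003DMG400003013 and PGSC0003DMG400008677 were higher on day 10 than on day 6.

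The members with the most reads on day 0 differed in how much was left under drought. PGSC0003DMG400005805 had 20960.5 reads on day 0 in Gwiazda, 24843 in Oberon, 36541 in Tajfun and 30685 in Owacja. On day 6 it had 6693, 9833, 7835 and 5176 reads, and on day 10 it had 6306, 8651, 5605 and 2793. The reduction was deeper in Tajfun and Owacja, with ratios of -2.70 and -3.46 on day 10, than in the other pair, with -1.73 in Gwiazda and -1.52 in Oberon. PGSC0003DMG400004639 showed the same division. Its day 0 means were 9748, 8296, 25566.5 and 15126 reads, and its day 10 ratios were -1.72 in Gwiazda, -1.69 in Oberon, -3.36 in Tajfun and -4.46 in Owacja.

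PGSC0003DMG400032534 was both among the members with most reads on day 0 and the one whose day 10 ratio varied most over cultivars, with a range of 3.71. On day 0 Gwiazda and Oberon had 3113 and 5374 reads, whereas Tajfun and Owacja had 25857 and 21029. On day 10 the 4 means were 372, 576, 322 and 192. The groups that differed several-fold on day 0 thus stood within 192 to 576 reads on day 10, and the ratios were -3.07, -3.22, -6.33 and -6.77. Other genes with a wide range were PGSC0003DMG400025771, with day 10 ratios from -1.74 in Oberon to -5.30 in Owacja, and PGSC0003DMG400031842, with -1.88 in Owacja to -5.42 in Tajfun. Over all members the range of the day 10 ratio over cultivars had a median of 1.33, and the middle 50% of members lay between 0.84 and 1.95.

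At the narrow end, PGSC0003DMG400018990 had day 10 ratios of -2.33, -2.29, -2.10 and -2.33 in Gwiazda, Oberon, Tajfun and Owacja, a range of 0.24. Its day 0 means were 11225, 8407, 5363 and 4401 reads and its day 10 means 2232, 1720, 1255 and 875, so the order of the cultivars was the same on both days. PGSC0003DMG400002587 and PGSC0003DMG400024618 had ranges of 0.29 and 0.32, around ratios near -2. The members with the fewest reads on day 0 were PGSC0003DMG400022990, PGSC0003DMG400016478 and PGSC0003DMG400035938, with day 0 means between 45.1 and 205 reads and drought means between 10.4 and 51.2.

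Across the 150 genes, Spearman's rho of the day 0 means lay between 0.80 and 0.94 over the 6 pairs of cultivars. For the day 10 ratios it lay between 0.16 (Gwiazda and Owacja) and 0.64 (Gwiazda and Oberon), and for the day 6 ratios between 0.26 and 0.64. Over all eligible genes the corresponding ranges were 0.66 to 0.86 on day 10 and 0.59 to 0.80 on day 6. Cultivars share no library, while genes are not independent replicates, and the members span a range of ratios that the rule cut off at the top, so the rho of levels and that of ratios are not compared. Within a cultivar the day 0 mean and the day 10 ratio had a rho between -0.16 and -0.09. The day 0 mean is the denominator of that ratio, so this rho is not read as a trait of the members.

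At the end of the list the members came close to the genes left out. The last members, PGSC0003DMG400002019, PGSC0003DMG400014297 and PGSC0003DMG400001576, had largest ratios of -1.21 each. The first genes left out, PGSC0003DMG400019566, PGSC0003DMG400019188 and PGSC0003DMG400020498, had -1.20 each. Not all of these were shallower as a whole. PGSC0003DMG400020498, left out for a ratio of -1.20 in Owacja on day 10, had -3.58 in Gwiazda and -3.56 in Tajfun on that day, while PGSC0003DMG400001576, kept, had -1.21 and -1.49. The list therefore favours genes reduced in all cultivars over genes reduced most in some of them.

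Both conditions of the rule also kept genes out. A total of 245 further eligible genes had all 8 ratios as low as the last member or lower but did not hold their level from day 6 to day 10, and 223 of them went further down on average and 22 went up. Another 487 genes had ratios as low and day 0 means above 10 in all cultivars, but had a mean of 10 or less in some group, and 281 of these were listed at 0 in some mean. The members are thus reduced genes that could still be read on both drought days. Among them, 28 had a mean below 20 reads in some group and 63 stayed above 100 reads in all groups. The same rule with the sign turned, for a rise that was early and sustained, was met by 430 eligible genes, beside 565 for the fall.

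To read the reduction in plants whose ratios had not chosen the genes, the rule was applied to 3 cultivars at a time. The first 150 genes were then looked up in the cultivar left out. That cultivar entered only through eligibility, which is the minimum mean of 10 reads and the day 0 mean below 30000 in some cultivar. In Gwiazda, 137 of the 150 genes chosen from the other cultivars were at least 2-fold lower on day 6, beside 12.9% of all eligible genes, and 143 on day 10, beside 18.6%. Oberon had 138 such genes on day 6 (12.0% of eligible genes) and 131 on day 10 (15.7%). Tajfun had 143 on day 6 (13.7%) and 147 on day 10 (18.9%), and Owacja had 143 on day 6 (14.5%) and 135 on day 10 (20.1%). The shares of the chosen genes, 87.3% to 98.0%, lay above the background in each of the 8 comparisons. Days 6 and 10 of a cultivar share its day 0 group, so these are not 8 separate comparisons. Over all eligible genes the ratios of any 2 cultivars went together, with a rho of 0.59 to 0.86. A share above the background was therefore likely beforehand and is given without a test. The rule itself was set with earlier results of these data known. Median ratios in the cultivar left out were -2.17 and -2.43 in Gwiazda, -1.87 and -1.89 in Oberon, -2.48 and -3.01 in Tajfun, and -2.38 and -2.29 in Owacja, for days 6 and 10. These 4 lists shared 101 to 117 genes with the list of 150. How far such a share would vary from plant to plant could not be measured, as no value of a single library was used.

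**Figure D3:**
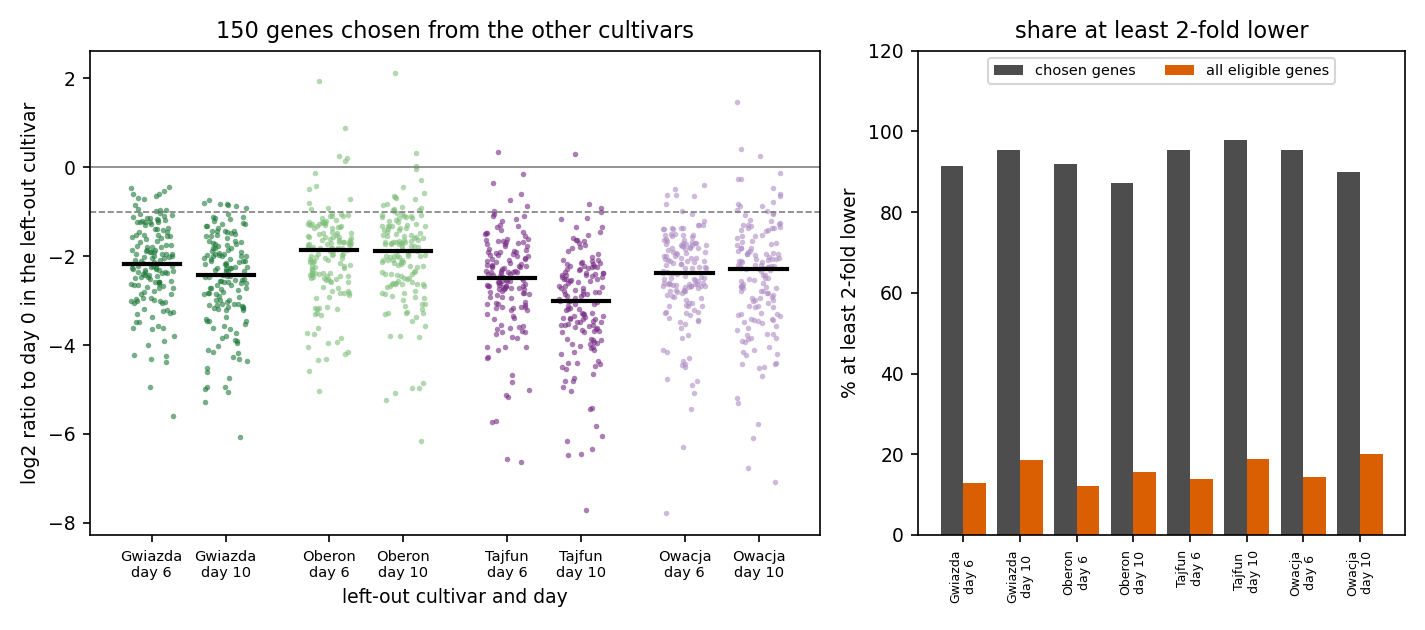
Left, log2 ratio to day 0 in the cultivar left out, for the 150 genes that the rule chose from the other cultivars; points are genes, black lines medians, and the grey lines mark 0 and a 2-fold lower mean. Right, the percent of these genes (grey) and of all eligible genes (orange) that were at least 2-fold lower, 87.3% to 98.0% beside 12.0% to 20.1%.

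A few genes chosen in this way were not reduced in the cultivar left out, and they are named after their values were seen. All 150 were lower than on day 0 on both days in Gwiazda. In Oberon, 5 genes were higher on day 6 and 3 on day 10. PGSC0003DMG400034122 had 611 reads on day 0 in Oberon, 2331 on day 6 and 765 on day 10, while its ratios in the other cultivars were all -1.47 or lower. PGSC0003DMG400001014 had 5960, 11007 and 6075 reads in Oberon, with ratios from -1.43 to -2.69 elsewhere, and PGSC0003DMG400016291 had 58.8, 43.6 and 257 reads. The other Oberon genes above day 0 on day 6, PGSC0003DMG402015689, PGSC0003DMG400032147 and PGSC0003DMG400025106, had ratios of 0.15, 0.22 and 0.26 on that day and were below day 0 on day 10. In Tajfun, PGSC0003DMG400002570 alone was higher, with 90.9, 118 and 111 reads. In Owacja 3 genes were higher on day 10 and 0 on day 6. PGSC0003DMG400032555 had 288, 98.6 and 798 reads there on days 0, 6 and 10, PGSC0003DMG402012350 had 516, 94.2 and 615, and PGSC0003DMG400016126 had 141, 114 and 187, and all of these were below day 0 on day 6.

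From day 6 to day 10 the rule held the average over cultivars between -0.5 and 0.5, but not the single cultivars. The median member went down in the tolerant cultivars and held its level in the sensitive ones, with ratios of day 10 to day 6 of -0.24 in Gwiazda and -0.27 in Tajfun, beside -0.01 in Oberon and 0.01 in Owacja. Over all eligible genes the 4 medians lay between -0.0046 and 0.02. Rescaled to equal totals, the medians of the members were -0.25 in Gwiazda and -0.32 in Tajfun, beside -0.08 in Oberon and -0.12 in Owacja. In Gwiazda, 46 members had a ratio of -0.5 or lower (24.8% of eligible genes) and 21 a ratio of 0.5 or higher (25.8%). Tajfun had 49 (20.5%) and 9 (21.3%). In Oberon the counts were 22 (25.1%) and 36 (25.9%), and in Owacja 36 (25.1%) and 33 (22.7%). From day 6 to day 10 the ratio was below 0 for 98 members in Gwiazda (50.2% of eligible genes) and 117 in Tajfun (48.9%). It was below 0 for 76 in Oberon (49.7%) and 74 in Owacja (50.3%). These are 65.3%, 78.0%, 50.7% and 49.3% of the 150, so Oberon and Owacja were near the eligible share. Among the 415 genes that met the rule but ranked after the list, the shares were 63.4% in Gwiazda, 70.6% in Tajfun, 47.5% in Oberon and 57.6% in Owacja.

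Within the pairs, the median of the difference in this ratio was -0.24 for Gwiazda minus Oberon and -0.30 for Tajfun minus Owacja, beside -0.02 and 0.04 over all eligible genes. The tolerant cultivar had the lower ratio in both pairs for 58 of the 150 members (38.7%), beside 23.7% of eligible genes. It had the higher ratio in both pairs for 16 (10.7%), beside 24.8%. Both tolerant cultivars lay below both sensitive cultivars for 37 members (24.7%, beside 12.2% of eligible genes) and above them for 7 (4.67%, beside 12.9%). Of the 415 further genes that met the rule, 135 (32.5%) had the lower ratio in the tolerant cultivar of both pairs. The higher ratio was seen in 57 (13.7%). Their median differences were -0.19 and -0.10, in the order of the pairs above. The rule bounded the average of this ratio over cultivars, while eligible genes carry no such bound, so their shares are no matched background. The ratio of day 10 to day 6 was thus used by the rule, and there are 2 cultivars of each kind. The difference was therefore not tested, and nothing about tolerance is concluded from it.

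Single genes showed how the level was held in different ways. PGSC0003DMG400019964, near the upper bound with an average ratio of 0.48, came back in part in 3 cultivars. It had 1574, 237 and 391 reads on days 0, 6 and 10 in Gwiazda, 1215, 234 and 393 in Tajfun, and 1458, 206 and 350 in Owacja, while Oberon had 1174, 500 and 352. PGSC0003DMG400024500, with an average of 0.49, came back in part in Gwiazda (26.9 to 51.6 reads, a ratio of 0.92) and Oberon (38.6 to 101, 1.39). It did not in Tajfun (100 to 68.6, -0.48). In Owacja it was nearly level, with 30.4 and 30.1 reads from separately normalized tables and a ratio of 0.11 within 1 table. Near the lower bound, PGSC0003DMG400000827 went from 154 to 96.8 reads in Gwiazda, 78.0 to 71.8 in Oberon, 174 to 97.7 in Tajfun and 105 to 72.0 in Owacja, lower on day 10 in all cultivars. PGSC0003DMG400016455 went from 1492 to 1002 reads in Gwiazda, 1584 to 830 in Oberon and 903 to 528 in Tajfun, and from 871 to 937 in Owacja.

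**Figure D4:**
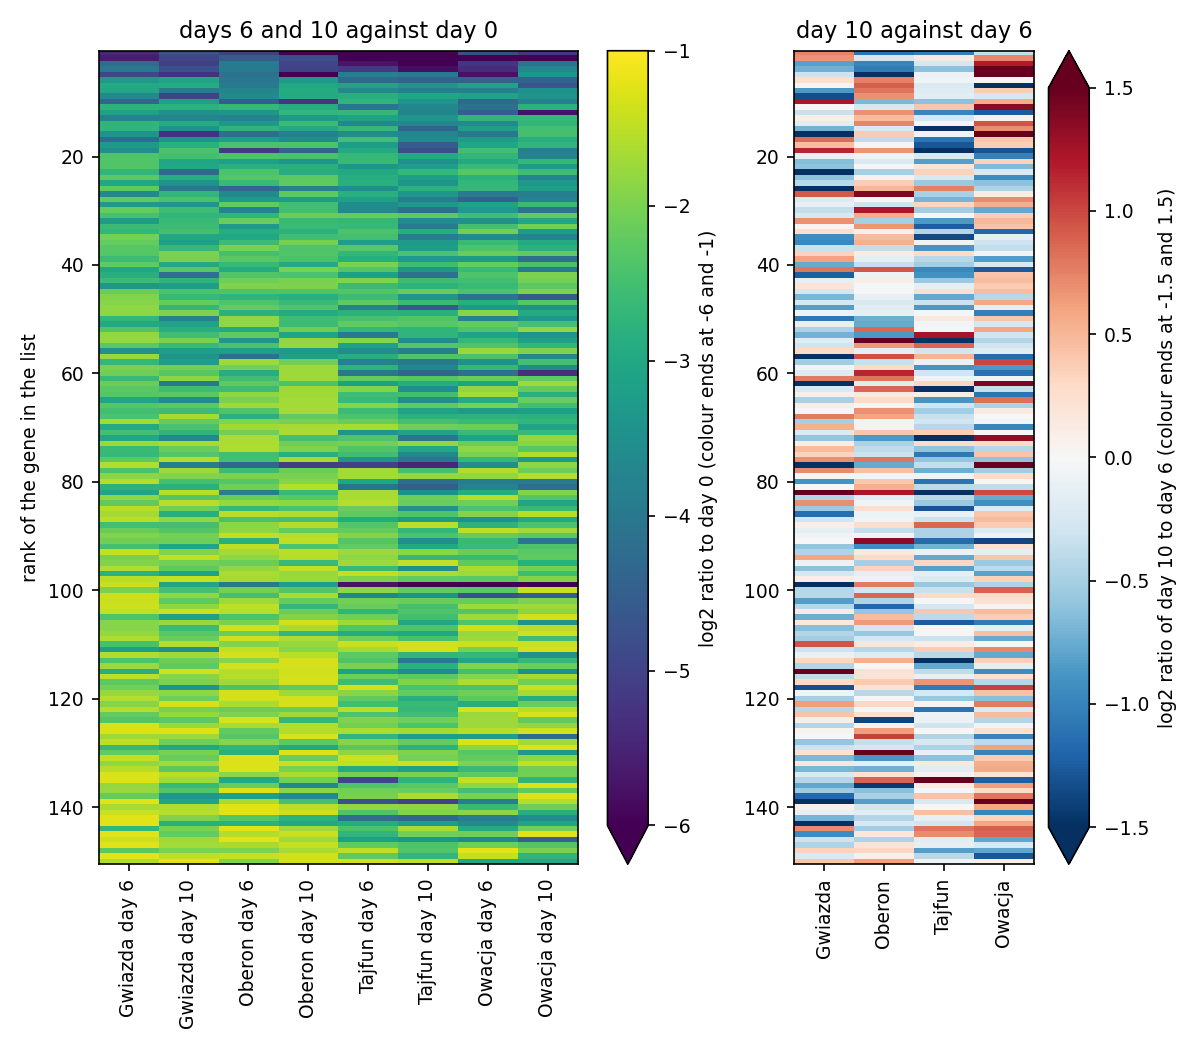
The 150 genes in the order of the list (rows). Left, log2 ratios of days 6 and 10 to day 0 in each cultivar, all at -1.21 or lower, as the choice of the list fixed; right, log2 ratio of day 10 to day 6, blue for lower and red for higher on day 10, with more blue in Gwiazda and Tajfun (medians -0.24 and -0.27) than in Oberon and Owacja (-0.01 and 0.01).

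Cultivars of a pair were compared in tables of their own. These hold, up to a constant factor, the means of the same groups by which the members were chosen, so the comparison is not independent of the choice. The counts of members that differed are given beside the share of eligible genes that did, with no test. The threshold is a difference of at least 1.5-fold. For Gwiazda and Oberon, 42 members did on day 0 (22.2% of eligible genes), 73 on day 6 (32.7%) and 60 on day 10 (24.3%), which are 28.0%, 48.7% and 40.0% of the 150. For Tajfun and Owacja the counts were 60 on day 0 (24.9%), 56 on day 6 (22.5%) and 82 on day 10 (38.8%), or 40.0%, 37.3% and 54.7%. On days 6 and 10 the members also had fewer reads than eligible genes, with medians of 138 to 177 beside 524 to 612, and the part of this in the spread between cultivars was not tested. At 2-fold the counts for Gwiazda and Oberon were 8 on day 0 (8.32% of eligible genes), 37 on day 6 (13.6%) and 32 on day 10 (9.62%), or 5.33%, 24.7% and 21.3% of the 150. For Tajfun and Owacja they were 24 (8.64%), 24 (7.84%) and 49 (17.7%), or 16.0%, 16.0% and 32.7%. The member share was thus above the eligible share at both thresholds except for Gwiazda and Oberon on day 0, where it was above at 1.5-fold and below at 2-fold. Differences went in both directions. The median log2 ratio of tolerant over sensitive was 0.10, 0.20 and -0.10 on days 0, 6 and 10 for Gwiazda and Oberon, and 0.13, 0.13 and -0.11 for Tajfun and Owacja. From 58.0% to 63.3% of members were higher in the tolerant cultivar on days 0 and 6, and 42.0% and 46.7% on day 10. Rescaled to equal totals, the medians were 0.07, 0.14 and -0.12 for Gwiazda and Oberon, and 0.22, 0.13 and -0.02 for Tajfun and Owacja, where the eligible genes moved to 0.06, -0.01 and 0.11.

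**Figure D5:**
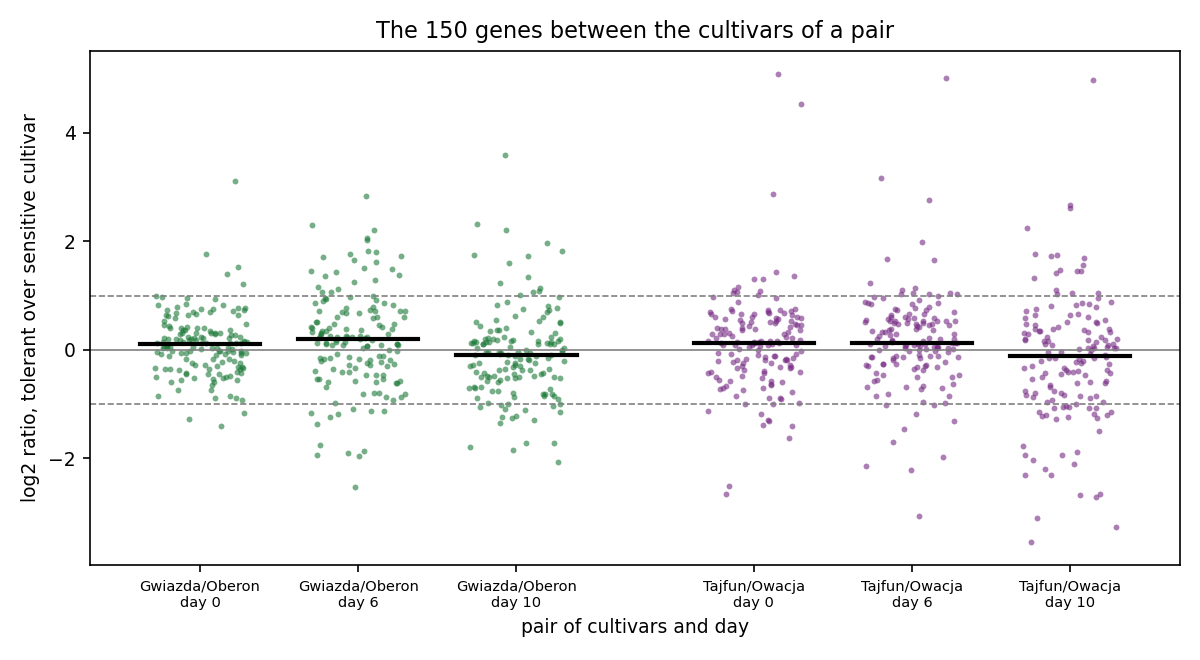
Log2 ratio of the tolerant over the sensitive cultivar of a pair for the 150 genes on days 0, 6 and 10. Points are genes, black lines medians (from -0.11 to 0.20) and dashed lines a 2-fold difference; the points highest on all days in the pair of Tajfun and Owacja are PGSC0003DMG402011400, at 5.08, 5.01 and 4.98.

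In each pair the member with the largest cultivar difference was the same gene on all 3 days. PGSC0003DMG402011400 had 11394, 1727 and 892 reads on days 0, 6 and 10 in Tajfun, and 303, 50.8 and 25.5 in Owacja. Within the tables that compare the cultivars, Tajfun was 33.9-fold above Owacja on day 0, 32.3-fold on day 6 and 31.6-fold on day 10. The ratios to day 0 were nearly the same in both, -2.75 and -3.67 in Tajfun and -2.67 and -3.57 in Owacja. Gwiazda and Oberon lay between them with 1081 and 972 reads on day 0. PGSC0003DMG400024283 had 585, 95.2 and 146 reads in Gwiazda and 62.9, 12.9 and 11.7 in Oberon. Gwiazda was 8.67-fold above Oberon on day 0, 7.18-fold on day 6 and 12.1-fold on day 10. In other members the difference was larger on day 10 than on day 0. Owacja was 1.00-fold Tajfun on day 0 for PGSC0003DMG400031842, and 2.75-fold and 11.6-fold above it on days 6 and 10. For PGSC0003DMG400003013 Owacja was 2.27-fold, 1.96-fold and 9.55-fold above Tajfun.

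A difference of at least 2-fold in the same direction on all 3 days was found for 5 members between Gwiazda and Oberon (1.96% of eligible genes) and for 6 between Tajfun and Owacja (2.06%), or 3.33% and 4.00% of the 150. Gwiazda was higher for 4 of its 5, which are PGSC0003DMG400024283, PGSC0003DMG400027354, PGSC0003DMG402027258 and PGSC0003DMG400006176, and Oberon for PGSC0003DMG400019712. Tajfun was higher for PGSC0003DMG402011400, PGSC0003DMG400025333 and PGSC0003DMG400016808, and Owacja for PGSC0003DMG400012809, PGSC0003DMG402003479 and PGSC0003DMG401004500. Apart from the genes of the first 10 ranks and the largest differences, these were named after their values were seen. For PGSC0003DMG400025333 the difference narrowed, with log2 ratios of 4.54, 2.77 and 2.67 on days 0, 6 and 10, as the reduction on day 10 was -3.86 in Tajfun and -1.97 in Owacja.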

How the data were processed

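Strand-specific libraries of leaf RNA were sequenced with paired reads. The authors mapped the reads with TopHat2 to the PGSC potato pseudomolecules, estimated reads per transcript with Flux Capacitor, summed them per gene and ran DESeq on each comparison alone. The deposited signal values are group means of these reads after division by size factors set for each table, and the authors averaged the replicates before deposit. The fold change and p-value columns of the authors' own comparisons were not used. In the 3 tables with Oberon day 10 the mean of both groups weights the other group by 0.6, as 3 libraries beside 2 would, while the labels give 3. Each group's columns differed between its 3 tables by a constant factor, of up to 1.16 in the median. Summed means per group lay between 34212700 and 44685600 reads. The tables hold no depth or value per library, and counting error was not computed here.

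Ratios were computed in Python 3.11.15 (numpy 2.4.6, pandas 2.3.3, scipy 1.17.1) from the 2 means of 1 table, with no pseudocount. Levels of days 0 and 10 come from the table of days 0 and 10, and those of day 6 from the table of days 0 and 6. As a check of the code alone, the rule was run on simulated tables with 200 genes lowered. Each was lowered alike in all cultivars and on both days, unlike the data, so the run says nothing about the members. A fold in a count (2-fold, 4-fold, 1.5-fold) is a size and not a test. Named genes are the 10 of lowest largest ratio and the 3 most and 3 least abundant on day 0. Also named are the 3 widest and 3 narrowest ranges of the day 10 ratio. To these come the 2 highest and 2 lowest average day 6 to 10 ratios and the largest cultivar ratio per pair and day. The last 3 inside and first 3 outside the list and the 3 lowest means of the 8 ratios complete them. Members among the 33 genes taken from the study were to be named too, and there were 0. The members, lists and rules were chosen with earlier results of these data known. Alternatives varied the minimum mean, the day 6 to 10 bounds, scaling, pseudocount, ranking, cultivars and list length.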

Additional observations from a re-analysis of the deposited data

How the results depend on the processing

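Which genes the list holds depended on the rule's settings. Of the 150 members, 63 were kept with a minimum mean of 100 reads, 82 with bounds of -0.25 to 0.25 on the day 6 to 10 ratio, 54 with no bounds and 75 in a list of 75, and under the other 13 alternatives 101 to 150 were kept. A list of 75 can keep no more than 75 members, and a list of 300 keeps all 150 by its length. Genes at least 2-fold lower in all 8 ratios numbered 75 in the list of 75 and 227 in the list of 300, and 110 to 150 under the other alternatives, where the lists have 150 genes. The lists were ranked on these ratios, so the counts describe the choice and do not test the reduction. Over the 4 lists for left-out cultivars, 561 of 600 genes were at least 2-fold lower on day 6 and 556 on day 10, and the alternatives gave 513 to 590 and 522 to 596. Rescaling to equal totals or centring on the median left all counts of members at least 1.5-fold apart between cultivars within 3 of the values given. At 2-fold, those counts were 8, 37 and 32 for Gwiazda and Oberon and 24, 24 and 49 for Tajfun and Owacja on days 0, 6 and 10. No paired analysis was possible because the deposited columns hold group means and carry no replicate number, and for the same reason no replicate could be left out. Means near 10 reads carry a larger relative counting error than high means, which was not computed here.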
